A study of Homo sapiens with 3 samples.

Results

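Cadherins are calcium-dependent adhesion proteins of the cell surface. The genes described here are the CDH genes with a number in their symbol, the non-clustered protocadherins, and the very large cadherins of the CELSR, FAT and DCHS families. They were matched by symbol, in a choice made with earlier results of these data known, and 44 of the 27307 genes in the tables matched. The study sequenced polyadenylated RNA of teratomas that had grown from H1, an established human embryonic stem cell line, in 3 replicate libraries. A teratoma is a tumour in which pluripotent cells differentiate into many tissues at once. According to the labels, each tumour began as 1000000 cells placed under the skin of an immunodeficient SCID-beige mouse and was collected 3 to 4 weeks later. The libraries, called teratomas 1, 2 and 3, are 1 group, with no second group to compare. Nothing in the labels says whether they are separate tumours, and the source of the spread between them was not tested.

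Classical cadherins bind the same cadherin on a neighbouring cell and are tied to actin inside the cell by catenins. Type I members hold together broad tissue layers, such as epithelium and neural tube, whereas type II members are known for marking finer groups of neurons and connective tissue cells. Non-clustered protocadherins bind more weakly and are best known from brain development, and the CELSR, FAT and DCHS proteins carry planar cell polarity, the common orientation of cells within a sheet.

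Levels are the RPKM values of the authors, which are scaled to transcript length and to library size, so they can be compared between genes. The library totals behind them, worked out from the values, were 43605458 reads for teratoma 3, 46243198 for teratoma 1 and 45815401 for teratoma 2. Differences between libraries are given on the log2(RPKM + 1) scale, which understates those of low genes. Of the 44 genes 32 reached 1 RPKM in all 3 libraries, which is called detected below, against 52.7% of all genes. The mean over the libraries was at least 10 RPKM for 16 genes, between 5 and 10 RPKM for 6, between 1 and 5 RPKM for 14, and under 1 RPKM for 8. The genes spanned a 443-fold range of mean level, and CDH2 and CDH1 together made up 25.3% of the summed mean RPKM of all 44.

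**Figure D1:**
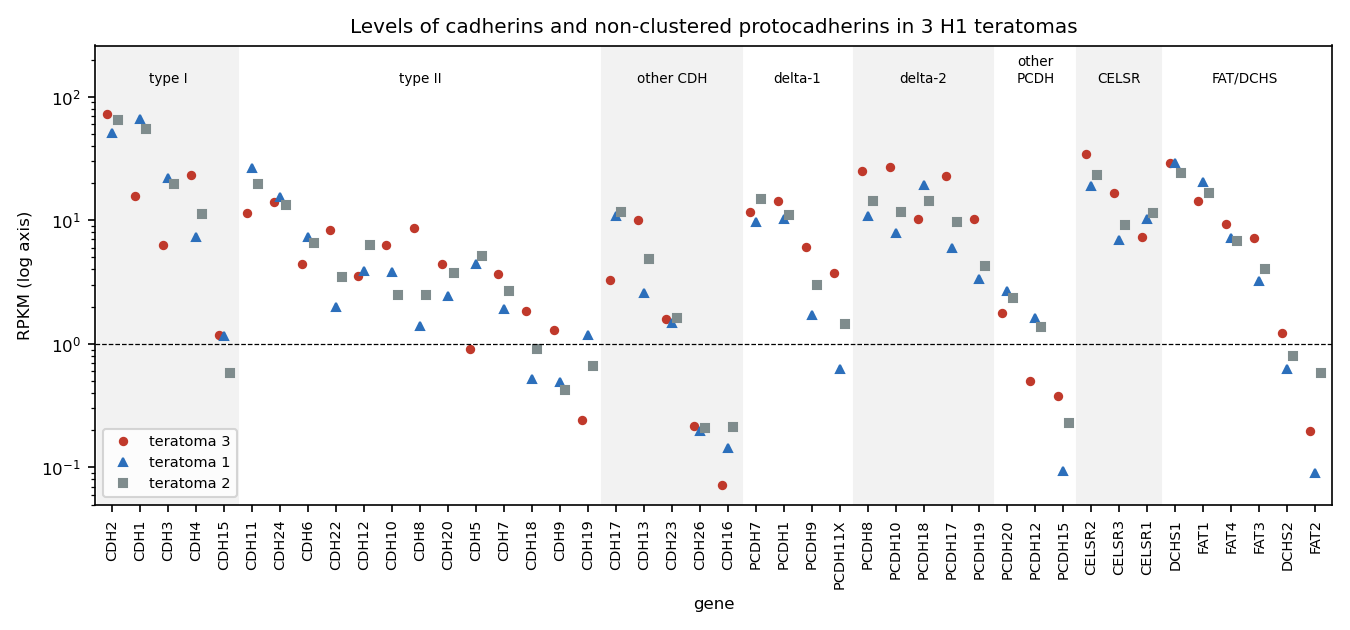
RPKM of the 44 genes on a log axis, ordered by family and, within a family, by mean level, with 1 point per library and a dashed line at 1 RPKM. CDH2 and CDH1 are the highest genes, and in CDH1 teratoma 3 lies at 15.9 RPKM, below the 65.6 and 55.2 RPKM of teratomas 1 and 2.

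CDH2 and CDH1 led the type I cadherins, and their order differed between libraries. CDH2, the N-cadherin of neural tissue and mesenchyme, stood at 72.9 RPKM in teratoma 3, against 51.0 and 64.6 RPKM in teratomas 1 and 2 (mean 62.9 ± 11.1, SD, n = 3). CDH1, the E-cadherin of epithelia, stood at 15.9 RPKM in teratoma 3, against 65.6 and 55.2 RPKM in teratomas 1 and 2 (45.6 ± 26.2). The libraries thus differed little in CDH2, while CDH1 was low in teratoma 3 alone. The level of CDH1 divided by that of CDH2 was 0.218 in teratoma 3, against 1.29 and 0.854 in teratomas 1 and 2. Over the 3 libraries the difference of CDH1 minus CDH2 was -0.67 ± 1.30 on the log2 scale (higher CDH1 in 1 of 3), with an exact two-sided sign-flip permutation p of 0.75, which became 1 after Benjamini-Hochberg adjustment over 4 pairs of genes. The smallest p that 3 libraries allow is 0.25. Without teratoma 3 the sign of that difference turned to 0.07.

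CDH3, the P-cadherin of placenta and of basal epithelial layers, lay with CDH1. It stood at 6.34 RPKM in teratoma 3, against 21.8 and 19.8 RPKM in teratomas 1 and 2. CDH4, the R-cadherin of retina and brain, showed the opposite order, with 23.4 RPKM in teratoma 3, against 7.36 and 11.3 RPKM in teratomas 1 and 2. CDH15, the M-cadherin of skeletal muscle precursors, was near the detection level, at 1.17 RPKM in teratoma 3, against 1.16 and 0.58 RPKM in teratomas 1 and 2. CDH15 was lower in teratoma 2 than in the others, and so were 7 of 8 skeletal muscle markers, whose sum was 23.1 RPKM in teratoma 3, against 12.8 and 11.4 RPKM in teratomas 1 and 2, with MYF5 at 0 in teratoma 2. Their part in the CDH15 values was not tested. The summed level of the 5 type I genes was 120 RPKM in teratoma 3, against 147 and 151 RPKM in teratomas 1 and 2.

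Markers of epithelium moved with CDH1 and CDH3. All 11 epithelial markers, among them EPCAM and KRT8, were detected, and all 11 were at least 1 lower on the log2 scale in teratoma 3 than the mean of teratomas 1 and 2. Their summed level was 227 RPKM in teratoma 3, against 944 and 926 RPKM in teratomas 1 and 2, and none was at 0. The 7 markers of stratified epithelium did not follow them. Their sum was 45.6 RPKM in teratoma 3, against 20.2 and 233 RPKM in teratomas 1 and 2, and CDH3 was not highest in teratoma 2. In bulk tissue fewer cells of a type and less RNA per cell cannot be told apart, and the part of tissue make-up in the cadherin differences was not tested.

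Type II cadherins were detected in 9 of 13 cases, with a median of the mean levels of 4.2 RPKM. CDH11, the OB-cadherin of mesenchyme and bone-forming cells, stood at 11.4 RPKM in teratoma 3, against 26.3 and 19.5 RPKM in teratomas 1 and 2. CDH24 was the second highest type II gene and the steadiest, with 13.9 RPKM in teratoma 3, against 15.4 and 13.3 RPKM in teratomas 1 and 2. CDH6, the K-cadherin of the embryonic kidney, stood at 4.46 RPKM in teratoma 3, against 7.33 and 6.59 RPKM in teratomas 1 and 2. CDH11 and CDH6 were both lowest in teratoma 3. CDH11 exceeded CDH6 in 3 of 3 libraries, by 1.44 ± 0.26 on the log2 scale (exact sign-flip permutation p = 0.25, adjusted p = 0.5).

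Markers of fibroblasts and mesenchyme moved with CDH11. All 11, among them COL1A1 and PDGFRA, were detected and were lowest in teratoma 3, where 10 of the 11 lay at least 1 below the mean of the other libraries on the log2 scale. Their sum was 458 RPKM in teratoma 3, against 2056 and 1673 RPKM in teratomas 1 and 2, and none was at 0.

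Among the type II genes known from the brain, CDH8 and CDH22 showed the widest gaps. CDH8 stood at 8.7 RPKM in teratoma 3, against 1.39 and 2.51 RPKM in teratomas 1 and 2, and CDH22 at 8.42 RPKM in teratoma 3, against 1.98 and 3.47 RPKM in teratomas 1 and 2. In teratoma 3 CDH8 was 4.46 times and CDH22 3.09 times the mean RPKM of the other libraries. CDH10 stood at 6.3 RPKM in teratoma 3, against 3.85 and 2.49 RPKM in teratomas 1 and 2. CDH18, another brain cadherin, stood at 1.86 RPKM in teratoma 3, against 0.516 and 0.916 RPKM in teratomas 1 and 2. All 4 were highest in teratoma 3, although CDH10 was lowest in teratoma 2 and the others in teratoma 1.

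CDH20 and CDH7 shared that order at smaller distances. CDH20 stood at 4.4 RPKM in teratoma 3, against 2.42 and 3.75 RPKM in teratomas 1 and 2, and CDH7 at 3.7 RPKM in teratoma 3, against 1.9 and 2.68 RPKM in teratomas 1 and 2. CDH12, first described as a brain cadherin, did not share it. It stood at 3.55 RPKM in teratoma 3, against 3.9 and 6.34 RPKM in teratomas 1 and 2, and was highest in teratoma 2. CDH9 averaged 0.734 ± 0.477 RPKM, with 172 reads in teratoma 3, against 70 and 60 reads in teratomas 1 and 2.

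The remaining type II genes belong to vessels and to nerve sheath. CDH5, the VE-cadherin of endothelial junctions, stood at 0.913 RPKM in teratoma 3, against 4.45 and 5.14 RPKM in teratomas 1 and 2, so that it missed detection through teratoma 3 alone. PCDH12, a protocadherin of endothelium, had the same low library, with 0.496 RPKM in teratoma 3, against 1.63 and 1.37 RPKM in teratomas 1 and 2. All 10 endothelium markers, among them PECAM1 and KDR, were lowest in teratoma 3 too. Their sum was 14.7 RPKM in teratoma 3, against 51.1 and 52.6 RPKM in teratomas 1 and 2, and none was at 0. The host mouse could also bring endothelium and connective tissue, and whether its reads were removed is not given in the sources used here, so their part in these values was not tested.

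CDH19, known from Schwann cell precursors, stood at 0.244 RPKM in teratoma 3, against 1.17 and 0.66 RPKM in teratomas 1 and 2, on 66, 336 and 188 reads. The highest entry for this gene was a non-coding transcript, whose RPKM differed little from that of the coding ones. The 7 neural crest and Schwann cell markers had the same library order as CDH19, with a sum of 53.2 RPKM in teratoma 3, against 140.1 and 84.1 RPKM in teratomas 1 and 2, and none was at 0. The part of these cells in the CDH19 values was not tested.

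The 5 other CDH genes are structurally unlike one another. CDH17, named LI-cadherin after liver and intestine, stood at 3.32 RPKM in teratoma 3, against 10.8 and 11.7 RPKM in teratomas 1 and 2. CDH13, the T-cadherin, which is held in the membrane by a lipid anchor and has no tail inside the cell, stood at 10.1 RPKM in teratoma 3, against 2.56 and 4.87 RPKM in teratomas 1 and 2. CDH23, a tip-link protein of the hair cells of the ear, stood at 1.59 RPKM in teratoma 3, against 1.47 and 1.61 RPKM in teratomas 1 and 2. The gut cadherin was thus lowest and T-cadherin highest in teratoma 3, while CDH23 hardly differed. All 7 intestine markers, among them CDX2 and VIL1, were lowest in teratoma 3, with a sum of 25.2 RPKM there, against 91.0 and 110.5 RPKM in teratomas 1 and 2. All 8 liver and yolk sac markers, among them AFP and APOA1, were also at least 1 lower in teratoma 3, with a sum of 347 RPKM there, against 1080.2 and 3749 RPKM in teratomas 1 and 2. None of the markers of either list was at 0, and their part in the CDH17 values was not tested.

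CDH26 and CDH16 were at the low end. CDH16, the kidney-specific cadherin, had 9 reads in teratoma 3, against 19 and 28 reads in teratomas 1 and 2, the lowest mean of all 44 genes. Its level of 0.0715 RPKM in teratoma 3 had a 95% exact Poisson interval of 0.0327 to 0.136 RPKM, which did not reach that of teratoma 2 (0.141 to 0.306 RPKM) but overlapped that of teratoma 1 (0.0857 to 0.222 RPKM). CDH26 had 44 reads in teratoma 3, against 42 and 44 in teratomas 1 and 2, with overlapping intervals throughout. These intervals cover counting error only. A count of 3 reads would give CDH16 0.0238 RPKM in teratoma 3, so its reads lay above that floor.

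**Figure D2:**
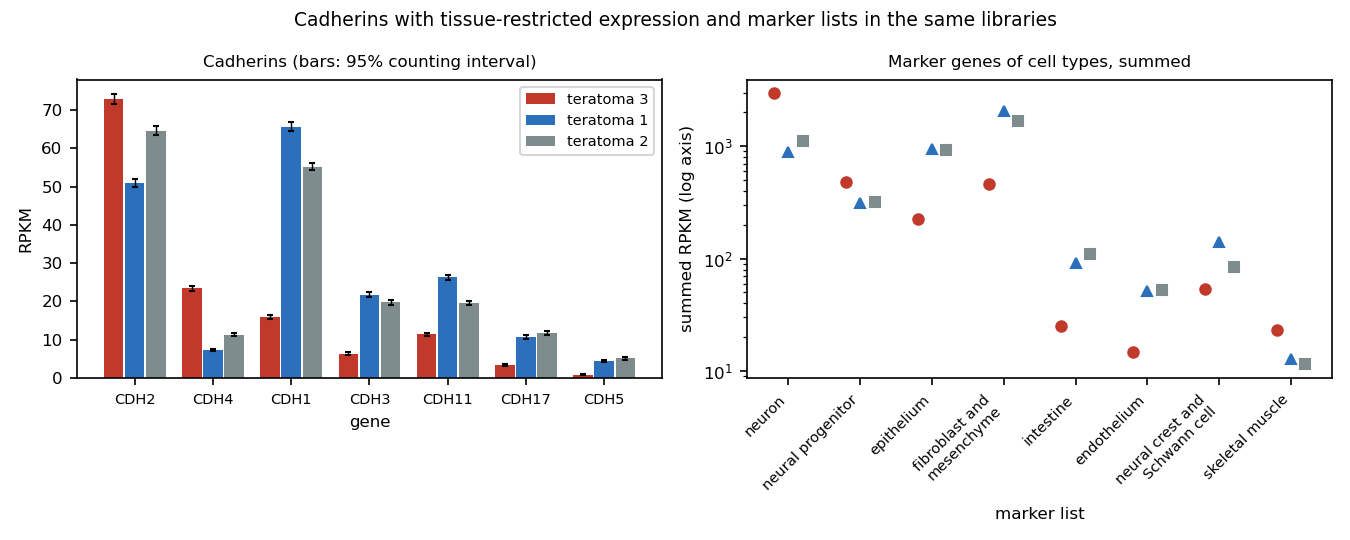
On the left, bars give the RPKM of 7 cadherins per library with 95% exact Poisson counting intervals, and on the right, points give the summed RPKM of 8 lists of cell type markers per library on a log axis. CDH2 and CDH4 are highest in teratoma 3, while CDH1, CDH3, CDH11, CDH17 and CDH5 are lowest there, as are the summed epithelium, mesenchyme, intestine and endothelium markers.

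The delta-2 protocadherins, several of which contact the actin regulator WAVE with their tails, were all detected, 5 of 5. PCDH8 stood at 24.9 RPKM in teratoma 3, against 10.9 and 14.4 RPKM in teratomas 1 and 2. PCDH10 stood at 26.9 RPKM in teratoma 3, against 7.9 and 11.6 RPKM in teratomas 1 and 2. PCDH17 stood at 22.6 RPKM in teratoma 3, against 6.0 and 9.76 RPKM in teratomas 1 and 2. These 3 genes and PCDH19, whose mutation causes an epilepsy, were highest in teratoma 3. PCDH19 stood at 10.3 RPKM there, against 3.37 and 4.24 RPKM in teratomas 1 and 2. PCDH18 ran the other way, with 10.2 RPKM in teratoma 3, against 19.5 and 14.2 RPKM in teratomas 1 and 2. In teratoma 3 the delta-2 genes summed to 94.96 RPKM, against 47.6 and 54.3 RPKM in teratomas 1 and 2.

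The 4 delta-2 genes with a RefSeq promoter sequence at hand (build GRCh38.p14) are shown because 3 of them were highest and 1 was lowest in teratoma 3. Each line gives the 250 bases before the annotated start, 5′ to 3′ on the strand of the gene, with CG dinucleotides, the sites of DNA methylation, in capitals.
PCDH8, chr13:52848641-52848890, minus strand: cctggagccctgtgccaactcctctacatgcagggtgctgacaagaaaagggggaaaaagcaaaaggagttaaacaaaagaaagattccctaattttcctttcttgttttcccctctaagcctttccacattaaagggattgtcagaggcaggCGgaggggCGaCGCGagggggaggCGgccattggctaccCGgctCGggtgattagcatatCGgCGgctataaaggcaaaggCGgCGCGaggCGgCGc
PCDH17, chr13:57631494-57631743, plus strand: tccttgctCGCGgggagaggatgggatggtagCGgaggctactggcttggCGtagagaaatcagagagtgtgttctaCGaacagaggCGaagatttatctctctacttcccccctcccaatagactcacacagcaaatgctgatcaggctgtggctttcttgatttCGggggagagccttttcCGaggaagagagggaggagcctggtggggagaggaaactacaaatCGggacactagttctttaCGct
PCDH19, chrX:100410274-100410523, minus strand: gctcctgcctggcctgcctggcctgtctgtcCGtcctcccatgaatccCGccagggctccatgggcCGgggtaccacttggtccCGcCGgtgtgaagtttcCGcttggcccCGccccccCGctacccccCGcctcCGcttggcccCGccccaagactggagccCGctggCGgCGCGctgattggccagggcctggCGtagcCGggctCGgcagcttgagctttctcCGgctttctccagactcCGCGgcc
PCDH18, chr4:137532495-137532744, minus strand: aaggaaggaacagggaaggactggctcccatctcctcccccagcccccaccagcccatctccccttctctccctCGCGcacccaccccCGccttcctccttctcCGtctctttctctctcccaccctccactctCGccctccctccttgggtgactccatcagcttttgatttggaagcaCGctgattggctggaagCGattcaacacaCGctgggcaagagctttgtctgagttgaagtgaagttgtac
The count of CG dinucleotides was 14 for PCDH8, 10 for PCDH17 and 21 for PCDH19, the genes highest in teratoma 3, and 8 for PCDH18. The 27 of the 44 genes with a promoter in the table had a median of 10, and all 27305 promoters, 1 for each gene, had a median of 11. CACCTG on either strand, an E-box sequence known from the CDH1 promoter, was in none of the 4, in 3 of the 27 promoters (11.1%) and in 17.5% of all promoters. These counts describe the letters of these windows, and methylation was not measured.

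The delta-1 protocadherins have more extracellular cadherin repeats than the delta-2 group. PCDH7 stood at 11.8 RPKM in teratoma 3, against 9.63 and 14.9 RPKM in teratomas 1 and 2, and PCDH1 at 14.2 RPKM in teratoma 3, against 10.2 and 11.0 RPKM in teratomas 1 and 2. PCDH9 stood at 6.12 RPKM in teratoma 3, against 1.7 and 3.01 RPKM in teratomas 1 and 2. PCDH11X stood at 3.75 RPKM in teratoma 3, against 0.621 and 1.46 RPKM in teratomas 1 and 2. PCDH1, PCDH9 and PCDH11X were highest in teratoma 3, and PCDH7 in teratoma 2. PCDH11X has a near-identical copy on the Y chromosome, so its reads cannot be assigned with certainty. PCDH20 stood at 1.77 RPKM in teratoma 3, against 2.69 and 2.34 RPKM in teratomas 1 and 2. PCDH15, the tip-link partner of CDH23, averaged 0.233 ± 0.141 RPKM on 95 reads in teratoma 3, against 25 and 61 reads in teratomas 1 and 2.

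Neuron markers moved with the protocadherins and brain cadherins that were highest in teratoma 3. All 12, among them TUBB3, MAP2 and DCX, were detected and lay at least 1 above the mean of teratomas 1 and 2 on the log2 scale in teratoma 3. Their sum was 2973 RPKM in teratoma 3, against 883 and 1121 RPKM in teratomas 1 and 2, and none was at 0. The 8 neural progenitor markers summed to 477 RPKM in teratoma 3, against 311 and 321 RPKM in teratomas 1 and 2, a smaller gap, and 2 of the 8 lay at least 1 above the others. The part of neuron content in these cadherin values was not tested.

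The CELSR genes, relatives of the fly polarity gene flamingo, were all detected. CELSR2 stood at 34.3 RPKM in teratoma 3, against 19.1 and 23.2 RPKM in teratomas 1 and 2, and CELSR3, which guides axon tracts in the mouse, at 16.5 RPKM in teratoma 3, against 6.96 and 9.23 RPKM in teratomas 1 and 2. CELSR1, known from skin and neural tube of the mouse, stood at 7.33 RPKM in teratoma 3, against 10.3 and 11.4 RPKM in teratomas 1 and 2. CELSR3 was therefore above CELSR1 in teratoma 3 only, with level ratios of CELSR3 to CELSR1 of 2.25 in teratoma 3, against 0.676 and 0.811 in teratomas 1 and 2. The mean difference of CELSR3 minus CELSR1 was 0.10 ± 0.85 on the log2 scale (exact sign-flip permutation p = 1, adjusted p = 1), and its sign turned to -0.39 without teratoma 3.

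DCHS1 and FAT4, which bind each other across cell borders, differed little between libraries. DCHS1 was the third highest of the 44 genes, at 29.1 RPKM in teratoma 3, against 28.8 and 24.1 RPKM in teratomas 1 and 2. FAT4 stood at 9.36 RPKM in teratoma 3, against 7.18 and 6.82 RPKM in teratomas 1 and 2. FAT1, which regulates actin at cell contacts, stood at 14.3 RPKM in teratoma 3, against 20.4 and 16.6 RPKM in teratomas 1 and 2. FAT4 minus FAT1 was -1.04 ± 0.43 on the log2 scale, with FAT4 lower in 3 of 3 libraries (exact sign-flip permutation p = 0.25, adjusted p = 0.5). FAT4 has 3 near-equal entries, and with entries summed the sign of this difference turned to 0.43.

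The other members of this family were lower. FAT3, known from the nervous system, stood at 7.25 RPKM in teratoma 3, against 3.25 and 4.01 RPKM in teratomas 1 and 2. DCHS2 averaged 0.88 ± 0.301 RPKM and FAT2 0.288 ± 0.256 RPKM. FAT2 was highest in teratoma 2, with 125 reads in teratoma 3, against 60 and 384 reads in teratomas 1 and 2. On the log2(RPKM + 1) scale 0 of the 6 FAT and DCHS genes differed by 1 or more between the highest and the lowest library, against 12.1% of all genes. With a pseudocount of 0.1 FAT2 (1.84) and FAT3 (1.13) did.

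For 17 of the 44 genes the highest library exceeded the lowest by 1 or more on the log2 scale (a factor of 2 in RPKM + 1), against 12.1% of all genes and 20% of those averaging 1 RPKM or more. In all 17 the 95% counting intervals of the highest and lowest library did not overlap. Without teratoma 3 the count was 0 of 44. Teratoma 3 lay at least 1 above the mean of teratomas 1 and 2 for 9 genes, against 3.39% of all genes and 5.74% of those averaging 1 RPKM or more. These were CDH8 (1.74), PCDH17 (1.45), PCDH10 (1.40), CDH22 (1.37), CDH13 (1.28), CDH4 (1.27), PCDH11X (1.25), PCDH19 (1.24) and PCDH9 (1.11). It lay at least 1 below for 4 genes, against 5.16% of all genes and 8.93% of those averaging 1 RPKM or more. The second of these is near the share of these 44. Of the 44 genes 36 averaged 1 RPKM or more, and they held all 17, all 9 and all 4 of the genes counted here. The 4 genes were CDH1 (-1.86), CDH5 (-1.60), CDH3 (-1.57) and CDH17 (-1.51). CELSR3 (0.95), PCDH8 (0.94) and CDH11 (-0.93) came just under that size.

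**Figure D3:**
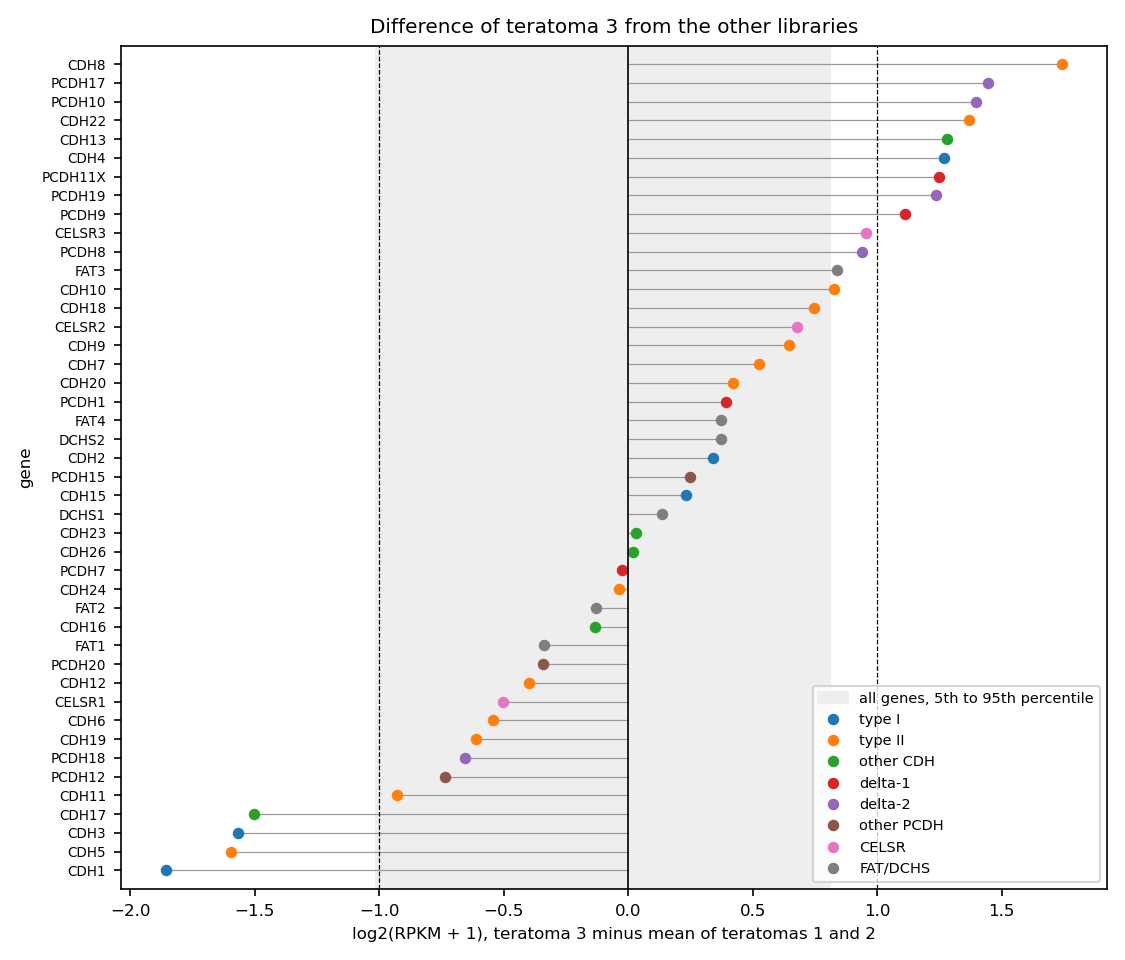
Points give, for each of the 44 genes, the difference of teratoma 3 from the mean of teratomas 1 and 2 in log2(RPKM + 1), coloured by family, with dashed lines at -1 and 1 and a grey band from the 5th to the 95th percentile of all 27307 genes. CDH8 lies at 1.74 and CDH1 at -1.86, and 5 of the 9 genes above 1 are protocadherins.

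Teratoma 3 was the highest library for 26 of the 44 genes, against 31.9% of all genes. Ties between libraries, as in genes without reads, were never counted for teratoma 3, which lowers the 31.9%. Among genes averaging 1 RPKM or more, teratoma 3 was the highest for 21 of 36 from this set and 6263 of all 15701. Its interval lay above those of both other libraries for 23 of the 44 genes, against 17.4% of all genes and 27.9% of those averaging 1 RPKM or more. It lay below both for 12 of the 44, against 22% of all genes and 34% of those averaging 1 RPKM or more, so that the count of lower genes was not above both backgrounds. Of the 36 genes of this set averaging 1 RPKM or more, 20 had the teratoma 3 interval above both others and 11 below both. The median difference of teratoma 3 was 0.29 for the 44 genes and 0.00 for all genes. By family the median was 1.24 for the 5 delta-2 genes, 0.75 for the 4 delta-1 genes, 0.68 for the 3 CELSR genes, 0.42 for the 13 type II genes, 0.25 for the 6 FAT and DCHS genes, 0.23 for the 5 type I genes, 0.02 for the 5 other CDH genes and -0.34 for the 3 other protocadherins. With rescaling to 1000000 per library or with median-of-ratios scaling, the sign turned for CDH24 and PCDH7, both within 0.06 of 0 under each scaling. The 3 libraries differ in many genes, and members of a family are not replicates, so these counts describe the libraries only.

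Teratomas 1 and 2 were closer to each other. None of the 44 genes differed by 1 or more on the log2 scale between them, which is near the share of 1.59% of all genes. The median size of the difference between them, regardless of sign, was 0.31 for the 44 genes and 0.096 for all genes. Among genes averaging 1 RPKM or more it was 0.34 for those of the 44 and 0.15 for all such genes. Teratoma 2 was the higher for 29 genes and lower for 15. Its counting interval lay above that of teratoma 1 for 23 genes, against 14.6% of all genes and 21.6% of those averaging 1 RPKM or more. It lay below that of teratoma 1 for 11 genes, against 15.9% of all genes and 25.1% of those averaging 1 RPKM or more, the second of which is near the share of these 44. Of the 36 genes of this set averaging 1 RPKM or more, 21 had the teratoma 2 interval above and 9 below. The differences of teratoma 2 minus teratoma 1 ran from -0.47 for CDH10 to 0.72 for CDH13, with PCDH17 (0.62), PCDH11X (0.60) and CDH22 (0.58) next to CDH13. PCDH17, PCDH11X, CDH22 and CDH13 were thus lowest in teratoma 1 and highest in teratoma 3.

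Genes that lie side by side in the genome did not always share a pattern. In the RefSeq annotation of GRCh38.p14, used here for gene order only, CDH3 and CDH1 are neighbours on chromosome 16, and both were low in teratoma 3. On the same chromosome CDH8, CDH11 and CDH5 are consecutive coding genes, with differences of 1.74, -0.93 and -1.60 for teratoma 3. PCDH10 and PCDH18 on chromosome 4 have 1 coding gene between them and differed by 1.40 and -0.66. CDH7 and CDH19, neighbours on chromosome 18, differed by 0.52 and -0.61. Of 11 such pairs, with at most 1 coding gene between, 4 had the same direction in teratoma 3 and 7 had opposite ones. The 4 include CDH26 and CDH4, where CDH26 lay at 0.02 with overlapping intervals and so had no clear direction. The share among other gene pairs was not counted, so these numbers do not set neighbours apart.

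Several genes are listed with more than 1 RefSeq transcript, and 27 of the 44 have 2 or more entries, 120 entries in all. In 25 of these 27 all entries had the same order of libraries. The entry with the highest mean RPKM was more than 2-fold above the lowest for CDH23 alone (2.96-fold, 9 entries). The CDH23 entry of 3954 bases stood at 1.59 RPKM in teratoma 3, against 1.47 and 1.61 RPKM in teratomas 1 and 2. The CDH23 entry of 4226 bases stood at 0.771 RPKM in teratoma 3, against 0.399 and 0.439 RPKM in teratomas 1 and 2. The steady level of CDH23 thus held for the leading entry and not for this one. The longest CDH23 entry, of 11124 bases, stood at 0.994 RPKM in teratoma 3, against 0.869 and 0.885 RPKM in teratomas 1 and 2. It was under 1 RPKM in each library, so that counting CDH23 as detected rests on the choice of entry. In GENCODE 29 an exon of CDH23 overlaps the coding gene C10orf105 on the opposite strand, and an exon of PCDH12 overlaps RNF14 on the opposite strand. The strand setting of the counting is not given in the sources used here, so reads of these pairs cannot be told apart.

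PCDH10, PCDH7 and CDH13 also have entries of unlike length. The short PCDH10 entry of 4586 bases stood at 26.9 RPKM in teratoma 3, against 7.9 and 11.6 RPKM in teratomas 1 and 2, and the long one of 8424 bases at 20.2 RPKM in teratoma 3, against 5.72 and 8.3 RPKM in teratomas 1 and 2. Both put teratoma 3 highest. For PCDH7 the leading entry of 4646 bases was highest in teratoma 2, whereas the entry of 8704 bases was level between teratomas 3 and 2, at 10.5 and 10.6 RPKM, and stood at 6.83 RPKM in teratoma 1. The CDH13 entry of 938 bases stood at 6.16 RPKM in teratoma 3, against 1.31 and 2.33 RPKM in teratomas 1 and 2, below the entries of 3812 bases and longer in each library and in the same order. Some reads were counted for several entries, so these values are not shares of isoforms.

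**Figure D4:**
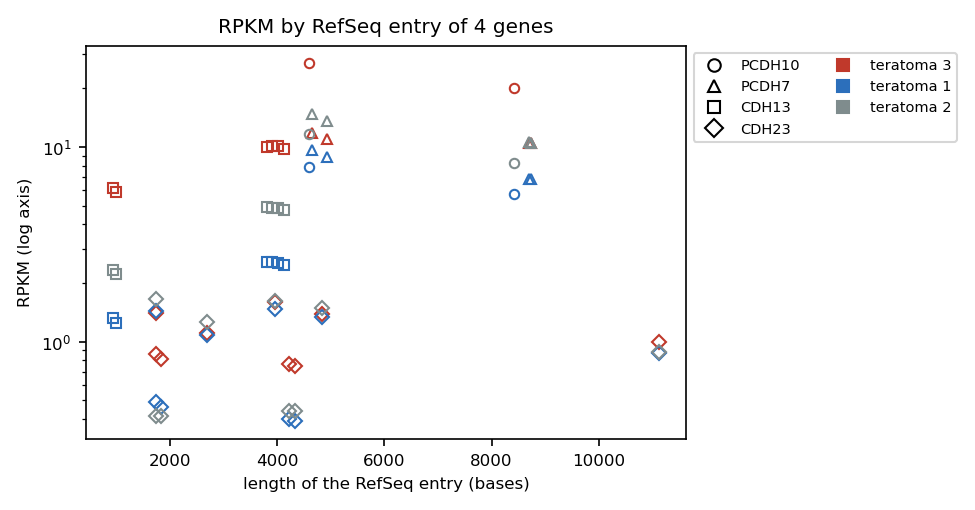
RPKM on a log axis against the length in bases of each RefSeq entry of PCDH10, PCDH7, CDH13 and CDH23, with symbols for genes and colours for libraries. The entries of PCDH10 and CDH13 have teratoma 3 on top at each length, and those of CDH23 fall into a higher and a lower set.

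Inside the cell, catenins and linkers join cadherin tails to actin. Of 11 such genes 10 were detected, against 52.7% of all genes. Highest and lowest library differed by 1 or more in 3, against 12.1% of all genes and 20% of those averaging 1 RPKM or more. In teratoma 3, 1 gene lay at least 1 above the other libraries, against 3.39% and 5.74% of the same sets. None lay at least 1 below, against 5.16% and 8.93%. With 11 genes, the counts above and below do not set this list apart from these shares. CTNNB1, the beta-catenin bound by classical cadherins, stood at 134.2 RPKM in teratoma 3, against 141 and 131 RPKM in teratomas 1 and 2. CTNNA2, the alpha-catenin of neurons, stood at 26.2 RPKM in teratoma 3, against 7.84 and 10.5 RPKM in teratomas 1 and 2, the order of CDH4. CTNNA1, the alpha-catenin of epithelia, stood at 50.1 RPKM in teratoma 3, against 76.3 and 65.9 RPKM in teratomas 1 and 2. CTNNA2 was thus highest and CTNNA1 lowest in teratoma 3, and CTNNB1 was nearly level.

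JUP, the plakoglobin of desmosomes and adherens junctions, stood at 35.3 RPKM in teratoma 3, against 70.3 and 72.7 RPKM in teratomas 1 and 2. VCL, the vinculin that links alpha-catenin to actin, stood at 10.3 RPKM in teratoma 3, against 22.2 and 18.3 RPKM in teratomas 1 and 2. Both were lowest in teratoma 3, as CDH1 was. CTNND1, the p120 catenin, stood at 33.7 RPKM in teratoma 3, against 46.5 and 40.3 RPKM in teratomas 1 and 2. CTNNA3 was the 1 member of this list under 1 RPKM in each library.

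The 10 planar polarity partners of CELSR, FAT and DCHS genes were all detected, against 52.7% of all genes. None differed by 1 or more on the log2 scale, against 12.1% of all genes and 20% of those averaging 1 RPKM or more. With 10 genes, a count of none does not set this list apart from these shares. FJX1, the homologue of a fly kinase that modifies the FAT and DCHS proteins, led them at 51.2 RPKM in teratoma 3, against 36.7 and 37.7 RPKM in teratomas 1 and 2. VANGL2 stood at 46.4 RPKM in teratoma 3, against 28.8 and 35.0 RPKM in teratomas 1 and 2, in the order of CELSR2 and CELSR3. DVL3 stood at 30.7 RPKM in teratoma 3, against 33.3 and 32.5 RPKM in teratomas 1 and 2, and DVL1 at 26.6 RPKM in teratoma 3, against 25.5 and 25.8 RPKM in teratomas 1 and 2. DVL3 and DVL1, cytoplasmic relays of the pathway, were nearly level, while the third, DVL2, was lowest in teratoma 3, at 14.7 RPKM there, against 23.4 and 19.6 RPKM in teratomas 1 and 2. The widest gaps of this list belonged to the receptor FZD6, with 2.65 RPKM in teratoma 3, against 5.6 and 6.15 RPKM in teratomas 1 and 2, and to VANGL1, with 2.06 RPKM in teratoma 3, against 4.51 and 4.41 RPKM in teratomas 1 and 2. In teratoma 3 5 of the 10 partners were highest and 5 were lowest. Of 8 further cadherin-related genes 5 were detected, against 52.7% of all genes, which does not set so short a list apart. The calsyntenins CLSTN1 (mean 86.2 RPKM) and CLSTN3 (38.7 RPKM) led them. CDHR5, a protocadherin-like protein of the gut brush border, stood at 4.76 RPKM in teratoma 3, against 13.3 and 15.3 RPKM in teratomas 1 and 2, the order of CDH17.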

How the data were processed

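The data are 3 tables, 1 per library, without a header. Per the submitters' processing notes, reads were aligned with Bowtie2 to hg19; for the counting tool, strand setting, filters and any removal of mouse reads, nothing was given in the sources used here. The deposited RPKM equals the deposited read count (raw whole reads per RefSeq entry) divided by the entry's length and by 1 total per library. Entries of a symbol were reduced to the one with the highest mean RPKM, 27307 genes from 59443 entries. The 44 members all had 1 genome placement. The members, lists and thresholds were chosen with earlier results of these data known. Teratoma 3 was set against the others because it stood farthest apart over all genes in those results.

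With 1 group, no model of group differences was fitted. Libraries were described by log2(RPKM + 1), by sizes of difference of 1 and by exact Poisson intervals (95%). Pairs of genes were compared within libraries by an exact sign-flip permutation test. All 44 members may be named. Those averaging 1 RPKM or more, or with a difference of 1, have their value per library given, and lists are given by their leading genes and sums. AFDN was listed under its current symbol. The difference statistic was tested on simulated counts. Promoters and gene order came from RefSeq, and exon overlaps from GENCODE 29, both GRCh38. Alternatives covered the detection level, pseudocount, low values, entries, scaling, size of difference and each library left out; the background of genes averaging 1 RPKM or more was added after the data were seen. Python 3.11.15, numpy 2.4.6, pandas 2.3.3 and scipy 1.17.1 were used.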

Additional observations from a re-analysis of the deposited data

How the results depend on the processing

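Of the 44 genes 32 were detected at 1 RPKM, 18 at 5 RPKM, and 33 to 34 with a library left out. The 17 genes differing by at least 1 between libraries became 1 (CDH8) at a size of 2, 24 with a pseudocount of 0.1, and 0 to 16 with a library left out, with 10 left without teratoma 1 and 0 without teratoma 3. The 9 genes higher in teratoma 3 became 0 at a size of 2 and 13 with a pseudocount of 0.1. They became 15 after rescaling to 1000000 per library and 6 to 11 with teratoma 1 or 2 left out. Rescaling raised all values, because the RPKM of a library summed to 275942 to 297261, so the pseudocount weighed less. It moved the median difference of teratoma 3 over all detected genes by 0.076. All 9 stayed in the count under rescaling and 5 without teratoma 1. The 4 genes lower in teratoma 3 became 0 at a size of 2 and 4 to 5 with teratoma 1 or 2 left out. They became 6 with a pseudocount of 0.1 and 6 after rescaling. CDH1 minus CDH2 was 0.32 with entries summed, where CDH1 has 4 entries and CDH2 has 2, and -1.18 to 0.067 with a library left out. FAT4 minus FAT1 was 0.43 with entries summed and -1.28 to -0.87 with a library left out, CELSR3 minus CELSR1 was -0.39 to 0.40, and CDH11 minus CDH6 1.31 to 1.57, or 2.95 with entries summed, where CDH11 has 3 entries and CDH6 has 1. Samples could not be paired between groups because all libraries form 1 group, and only genes were paired, within libraries. None of the 13 genes counted as higher or lower in teratoma 3 changed sign under any alternative run. Low genes such as CDH16, on 9 to 28 reads, are limited by depth.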
